A study of Mus musculus with 12 samples.

Results

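The matrix metallopeptidases (MMPs), the ADAM and ADAMTS metallopeptidases and the tissue inhibitors of metallopeptidases (TIMPs) were followed in RNA-Seq libraries of U2OS cells, a human osteosarcoma cell line. Members were the protein-coding genes whose full name in the deposited table begins with matrix metallopeptidase, ADAM metallopeptidase or TIMP metallopeptidase inhibitor, which gave 66 of 58735 listed genes. They were 23 MMP, 20 ADAM, 19 ADAMTS and 4 TIMP genes. Another 25 genes with such names were not protein coding and were left out.

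MMPs are zinc-dependent enzymes that cut collagens, laminins, fibronectin and other proteins of the extracellular matrix, and most are secreted as inactive precursors, while the membrane-type enzymes are anchored at the cell surface. ADAMs are mainly membrane proteins that release growth factors, cytokines and adhesion molecules from the cell surface, a process called shedding, and the secreted ADAMTS enzymes process procollagens and matrix proteoglycans. TIMPs bind the active site of these enzymes and block it. In bone and in tumours that arise from it, these families are known for matrix turnover and for clearing the way of migrating cells. SRSF1 is a splicing factor that binds exonic sequences of pre-mRNA.

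There were 3 replicates in each of 4 groups: blank U2OS cells, for which the labels name no siRNA or vector, U2OS cells that received the siRNA siSRSF1-2, U2OS cells that received the siRNA siSRSF1-3, and U2OS cells in which the long non-coding RNA LINC01134 was overexpressed (OE-LINC01134). All are 1 cell line, and no library with a control siRNA or an empty vector was analysed here, so each difference from blank cells holds the effect of the delivery together with that of the siRNA or vector. The methods give a single siRNA dose and harvest time, for transfections said to be of HOS, a different osteosarcoma line, and no separate ones for U2OS. The columns of the siRNA libraries carry the older name of SRSF1, ASF. The values are FPKM, which divide the fragments of a gene by its length and by a library size, and allow levels to be set side by side between genes, and 26237763 to 32954539 reads per library fell on genes.

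SRSF1 was measured at 35.9, 19.8 and 20.5 FPKM in the blank libraries, 7.09, 7.46 and 7.41 with siSRSF1-2, and 3.33, 6.81 and 7.90 with siSRSF1-3. The 6 siRNA libraries were lower than the 3 blank ones (two-sided exact permutation test, p = 0.1 for each siRNA, the smallest that 3 against 3 libraries allow). LINC01134 stood at 0.791, 0.519 and 0.497 FPKM in blank cells and at 891, 1279 and 878 in OE-LINC01134 cells. Marker genes of the line were checked as well, and 6 of 15 reached a mean of 0.5 FPKM. The mesenchymal gene VIM ranged from 68.7 to 248 FPKM and the osteoblast-lineage gene RUNX2 from 1.55 to 3.92. The osteoblast genes SP7 and BGLAP were near 0 and the blood and endothelial genes PTPRC, CD14, PECAM1, CDH5 and VWF did not exceed 0.368 FPKM. The osteoblast-lineage genes ALPL and COL1A1, the epithelial genes EPCAM, CDH1 and KRT14 and the telomerase gene TERT were also checked. Their values are not given here, so the markers shown do not describe the line fully.

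Libraries stood apart within 3 of the 4 groups, and several results of members that rest on them are given with and without them. Blank replicate 1 differed from blank replicates 2 and 3 by a mean chi-square per gene of 78.9 and 82.4, against 2.99 between replicates 2 and 3, where 1 is the level of counting noise. OE-LINC01134 replicate 2 differed from replicates 1 and 3 by 80.1 and 82.6, against 2.23 between that pair. Over the tested members, blank replicate 1 and OE-LINC01134 replicate 2 were each nearer to the other than to any library of their own group, with a root mean square difference of 0.668 on the log2 scale. LINC01134 itself was at 1279 FPKM in that OE-LINC01134 library, so it carried the overexpression its label states. Within the siSRSF1-3 group the same measure was 139 to 519, and within the siSRSF1-2 group 2.76 to 3.46. Replicate 3 of siSRSF1-3 was nearer to the siSRSF1-2 libraries (35.7 to 47.1) than to siSRSF1-3 replicates 1 and 2 (519 and 168), also over the tested members.

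Many members were expressed at a level that could be tested. A mean of at least 0.5 FPKM over the 12 libraries was reached by 33 of 66 members, 11 MMPs, 10 ADAMs, 9 ADAMTS genes and 3 TIMPs. TIMP1, the secreted inhibitor of most MMPs, had the highest mean at 962 FPKM and supplied 92.2% to 99.5% of the summed TIMP signal in each library. The stromelysin MMP3 followed at 86.6 FPKM, then ADAM9 at 32.5, the gelatinase MMP2 at 30.8, the membrane-anchored MMP14 at 24.5, ADAM15 at 20.4, TIMP2 at 16.3, the interstitial collagenase MMP1 at 9.83, ADAM19 at 9.55 and ADAM10 at 6.12. The ADAMTS genes were lower, with a median of 1.69 FPKM over the 9 tested, against 4.17 for the tested MMPs. Just inside the limit lay ADAM32 at 0.639, MMP10 at 0.624 and ADAMTS9 at 0.589 FPKM, and just outside it lay ADAMTS7 at 0.433, MMP25 at 0.427 and ADAMTS17 at 0.412.

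The other 33 members did not enter the test. Of these, 22 had a mean under 0.1 FPKM, and MMP26 and MMP27 had no read in any library. The collagenase MMP13 was measured at 0.433, 0.583 and 0.680 FPKM in blank cells and at 0.110 to 0.247 in the other 9 libraries. The aggrecan-cleaving enzymes ADAMTS4 and ADAMTS5 did not exceed 0.0178 and 0.0308 FPKM in any library, and TIMP4 did not exceed 0.278.

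**Figure D1:**
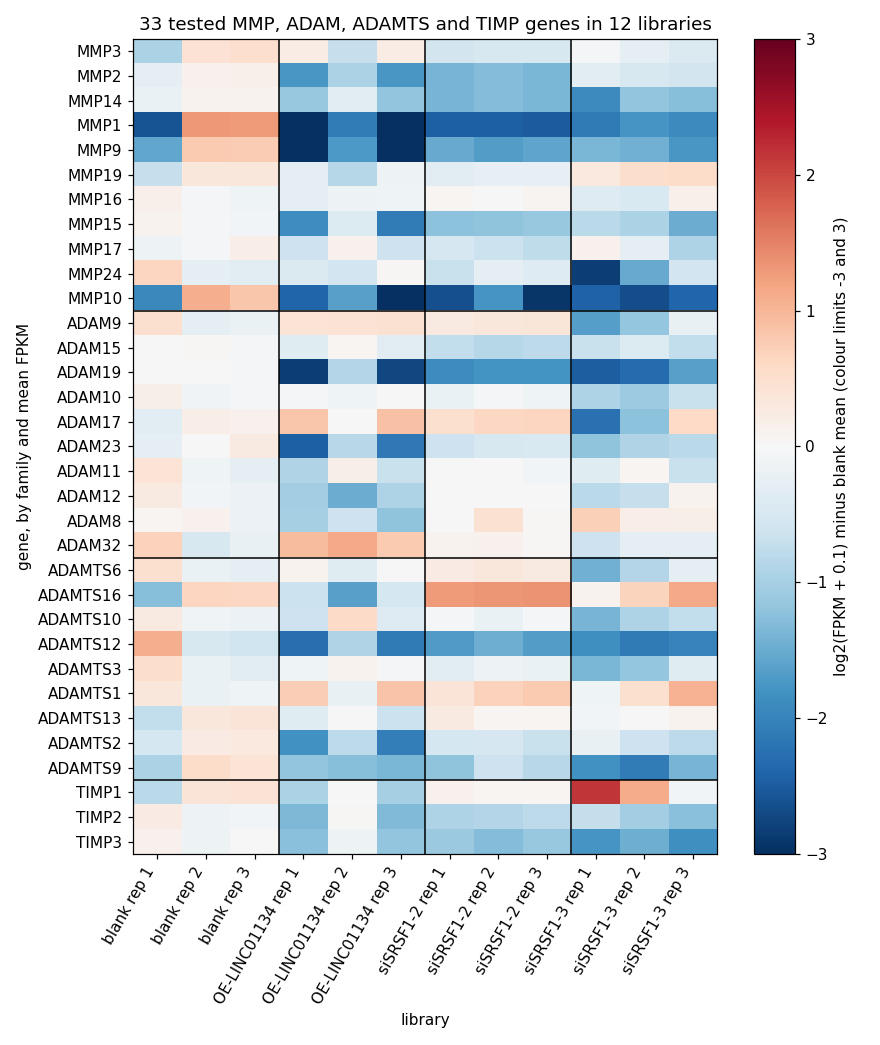
Colours show log2(FPKM + 0.1) of each of the 33 tested members (rows, by family and mean FPKM) in each of the 12 libraries (columns, by group) minus the mean of the 3 blank libraries, with colour limits at -3 and 3. The column medians of the 9 libraries outside the blank group lie between -0.91 and -0.27, and the split of the blank columns at MMP1, MMP9, MMP10 and ADAMTS12 can be read from it.

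The comparison of siSRSF1-2 with blank cells asks how these genes responded to the first siRNA against SRSF1. With siSRSF1-2, 6 of the 33 tested members were lower and 0 were higher, where limma had to give both an adjusted p under 0.05 and a log2 fold change beyond 1 in size for a call. The lower genes were 3 MMPs (MMP2, MMP14 and MMP15), ADAM19, ADAMTS12 and TIMP3. Over all 17538 genes tested, 2.73% were called lower and 2.22% higher. Without adjustment, 12 members had a p under 0.05 with a lower value and 3 with a higher one, where 40.3% of all genes had such a p in either direction. Limma's voom on the recovered reads called 6 members lower and 0 higher, against 3.01% and 2.59% of all genes. The median log2 fold change was -0.44 over the members and 0.02 over all genes, and 23 of 33 members had a value below 0. The MMPs had a median of -1.19, the TIMPs of -0.86, the ADAMTS genes of -0.10 and the ADAMs of -0.01. In 10 members all siSRSF1-2 libraries lay below all blank libraries and in 3 above, against 24.2% and 25.3% of all genes. In bulk RNA, fewer cells of a kind and less RNA per cell cannot be told apart.

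MMP14, the membrane-anchored enzyme that activates the MMP2 precursor at the cell surface (chromosome 14, 22836557 to 22849027, + strand, coordinates as deposited), was measured at 36.2, 45.4 and 44.9 FPKM in blank cells and at 16, 17.1 and 16.2 with siSRSF1-2. The groups did not overlap, and the mean was 2.57-fold lower with siSRSF1-2 (log2 fold change -1.35, SE 0.101, adjusted p = 0.00122). Its substrate MMP2, which digests denatured collagen and basement membrane (chromosome 16, 55389700 to 55506691, + strand), was measured at 39.8, 54.2 and 55.1 FPKM in blank cells and at 18.5, 20 and 19.1 with siSRSF1-2, a change of -1.35 on the log2 scale (SE 0.134, adjusted p = 0.00238). MMP15, another membrane-anchored MMP, stood at 4.11, 3.73 and 3.59 FPKM in blank cells and at 1.57, 1.59 and 1.67 with siSRSF1-2, which is 2.37-fold lower on the means (adjusted p = 0.00133). A relative of the same membrane-type class, MMP16, had 3.07 ± 0.322 and 3.16 ± 0.0954 FPKM (SD, n = 3 each) in these 2 groups, and its log2 fold change of 0.05 was within the spread (adjusted p = 0.756). 

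ADAM19, a shedding enzyme of neuregulins (chromosome 5, 157395534 to 157575775, - strand), had the smallest p of the members. It was measured at 21.7, 21.6 and 21.0 FPKM in blank cells and at 5.76, 6.09 and 6.06 with siSRSF1-2, which is 3.59-fold lower on the means (log2 fold change -1.83, SE 0.0592, adjusted p = 0.000344). The ADAM19 interval overlaps NIPAL4 on the other strand, and NIPAL4 went the other way, from 6.84, 15.7 and 15.4 FPKM in blank cells to 19.1, 19.8 and 19.1 with siSRSF1-2. TIMP3, the matrix-bound inhibitor that also blocks ADAM17 and ADAMTS enzymes (chromosome 22, 32801701 to 32863043, + strand), was measured at 5.62, 4.56 and 5.16 FPKM in blank cells and at 2.30, 2.01 and 2.27 with siSRSF1-2 (log2 fold change -1.18, SE 0.110, adjusted p = 0.00208). TIMP3 lies within SYN3 on the opposite strand, which was at 0.391 to 0.719 FPKM in blank cells and at 0.985 to 1.31 with siSRSF1-2. Whether the counting kept strands apart is not given in the sources used here.

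ADAMTS12, a secreted enzyme known to cleave cartilage oligomeric matrix protein, was called lower with siSRSF1-2 (log2 fold change -1.62, SE 0.449, adjusted p = 0.0434), but its blank libraries were uneven. Blank replicate 1 held 8.47 FPKM and replicates 2 and 3 held 2.81 and 2.57, against 1.14, 1.36 and 1.16 with siSRSF1-2. Without blank replicate 1 the value was -1.08 (adjusted p = 0.000856), and without blank replicate 2, or without any 1 of the siSRSF1-2 libraries, the gene was no longer called. Of the inhibitors, TIMP2, which takes part in the activation of MMP2 by MMP14, was below every blank library with siSRSF1-2 but missed the fold limit (-0.86, SE 0.115, adjusted p = 0.00498). ADAM15, an ADAM that binds integrins, held 26.2, 27 and 25.6 FPKM in blank cells and 15.6, 14.5 and 15.2 with siSRSF1-2, and also missed the fold limit (-0.80, SE 0.0581, adjusted p = 0.00121). ADAMTS1, which cuts aggrecan and versican, held 1.05, 0.702 and 0.736 FPKM in blank cells and 1.10, 1.39 and 1.47 with siSRSF1-2 and did not pass (0.62, SE 0.206, adjusted p = 0.0723).

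**Figure D2:**
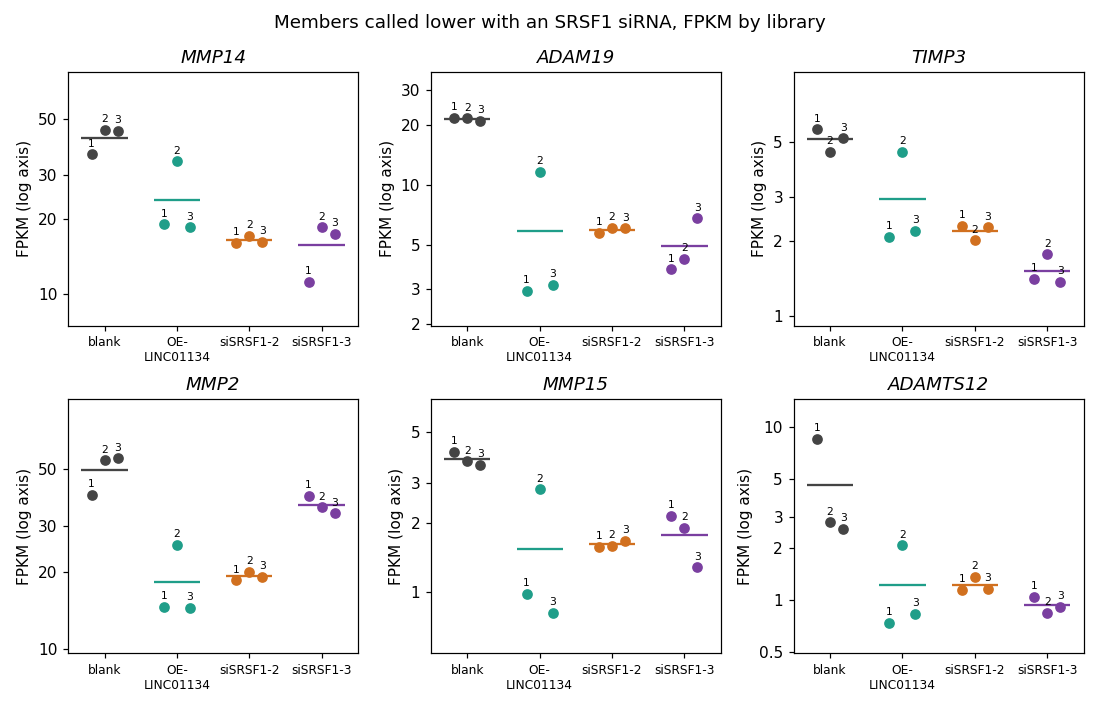
Each point is the FPKM of 1 library (log axis, replicate number beside it) and each bar the mean of its group of 3, for the 6 members called lower with siSRSF1-2. All siSRSF1-2 points lie below all blank points in each panel, and OE-LINC01134 replicate 2 lies above OE-LINC01134 replicates 1 and 3 in each panel.

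The second siRNA was compared with the same 3 blank libraries, so the 2 comparisons share their controls and their values are only set side by side. With siSRSF1-3, 3 of 33 members were lower and 0 higher, against 0.929% of all genes called lower and 0.331% higher. The 3 were MMP14, ADAM19 and TIMP3. At an unadjusted p under 0.05, 17 members were lower and 0 higher, where 28.8% of all genes had such a p in either direction. Voom called 5 members lower (MMP15 and TIMP2 in addition) and 0 higher, against 2.34% and 1% of all genes. The median log2 fold change of the members was -0.90, against -0.01 for all genes, and 27 of 33 members had a value below 0. In 15 members all siSRSF1-3 libraries lay below all blank libraries and in 1 above, against 18% and 19.2% of all genes.

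MMP14 held 11.2, 18.5 and 17.4 FPKM with siSRSF1-3, below the lowest blank library (log2 fold change -1.45, SE 0.243, adjusted p = 0.0483). ADAM19 held 3.78, 4.27 and 6.79 FPKM, 4.33-fold below the blank mean (log2 fold change -2.14, SE 0.242, adjusted p = 0.0356), and NIPAL4 on its other strand held 31.0, 26.9 and 26.5. TIMP3 held 1.41, 1.77 and 1.37 FPKM (log2 fold change -1.69, SE 0.197, adjusted p = 0.0356). These calls were close to the threshold. Leaving out blank replicate 2, blank replicate 3, siSRSF1-3 replicate 1 or siSRSF1-3 replicate 2 gave 0 members called. Those fits called 0, 0, 12 and 0 of all 17538 genes lower and 0, 0, 1 and 0 higher, so they could not show a loss particular to the members. Leaving out siSRSF1-3 replicate 3 gave 13 lower, in a fit that called 11.4% of all genes lower and 12.5% higher, and leaving out blank replicate 1 gave 2, MMP1 and MMP9, against 0.16% of all genes lower. MMP2, one of the genes called with siSRSF1-2, was at 39.4, 35.6 and 33.7 FPKM with siSRSF1-3 and missed both limits (-0.44, SE 0.204, adjusted p = 0.193). MMP15 at 2.15, 1.91 and 1.28 FPKM and TIMP2 at 14.8, 11.8 and 10.2 FPKM were below all blank libraries with adjusted p of 0.0657 and 0.0617.

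**Figure D3:**
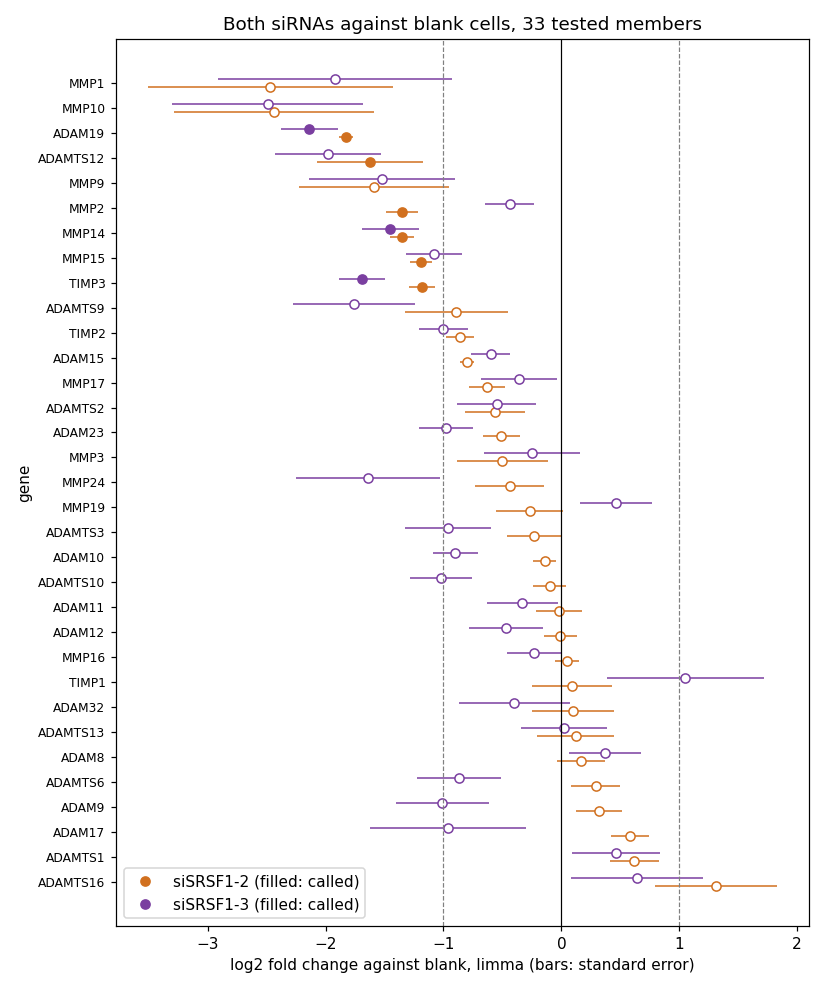
Points are the limma log2 fold changes of the 33 tested members with siSRSF1-2 and with siSRSF1-3, each against the same 3 blank libraries, with bars of 1 standard error, filled points for called members and dashed lines at -1 and 1. ADAM19, MMP14 and TIMP3 are filled for both siRNAs, and the widest bars belong to MMP1 (SE 1.04 and 0.992) and MMP10 (SE 0.849 and 0.81).

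MMP1, MMP3 and MMP10 are neighbours in the MMP cluster of chromosome 11, on the - strand: MMP10 from 102770503 to 102780628, MMP1 from 102789920 to 102798160 and MMP3 from 102835801 to 102843803, with gaps of 9.29 and 37.6 kb between them. The blank libraries disagreed on all 3. MMP1, which cuts fibrillar collagen, was measured at 2.86 FPKM in blank replicate 1 and at 43.2 and 42.9 in replicates 2 and 3, a 15.1-fold difference within the group. It stood at 3.11, 3.11 and 3.02 FPKM with siSRSF1-2, at 3.99, 5.11 and 4.64 with siSRSF1-3, and at 0.893, 4.03 and 1.05 in OE-LINC01134 cells. For MMP1, the 9 libraries outside the blank group therefore resembled blank replicate 1 more than blank replicates 2 and 3.

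With all libraries, MMP1 did not pass the test with either siRNA (siSRSF1-2: log2 fold change -2.47, SE 1.04, adjusted p = 0.132; siSRSF1-3: -1.92, SE 0.992, adjusted p = 0.229). Without blank replicate 1 it was called with both, at -3.76 (SE 0.0356, adjusted p = 3.83e-06) and -3.21 (SE 0.172, adjusted p = 0.0328). MMP10, which shares substrates with MMP3, held 0.288 FPKM in blank replicate 1 and 3.02 and 2.54 in the other two, with 0.0398 to 0.375 in the 9 libraries of the other groups. MMP3 differed less, with 49.6 FPKM in blank replicate 1, 129 and 136 in replicates 2 and 3, 65.3 to 68.3 with siSRSF1-2, 70.8 to 93.4 with siSRSF1-3, and 111, 59 and 112 in OE-LINC01134 cells. The other members of the cluster with a read, MMP7, MMP8, MMP12, MMP13 and MMP20, had means of 0.00643 to 0.271 FPKM.

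The split was not limited to that cluster. MMP9, the second gelatinase (chromosome 20), was at 3.35 FPKM in blank replicate 1 and at 17.6 and 17.3 in replicates 2 and 3, with 2.95 to 3.86 in the 6 siRNA libraries. It was not called with all libraries (siSRSF1-2: -1.59, SE 0.635, adjusted p = 0.117; siSRSF1-3: -1.52, SE 0.617, adjusted p = 0.163) and was called without blank replicate 1 (-2.37 and -2.30, adjusted p = 3.31e-05 and 0.0429). TIMP1 was at 409 FPKM in blank replicate 1 and at 946 and 976 in the others. Without blank replicate 1, siSRSF1-2 gave 10 members lower, with MMP1, MMP9, MMP10 and ADAMTS9 added to the 6, against 3.74% of all genes called lower in that fit.

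**Figure D4:**
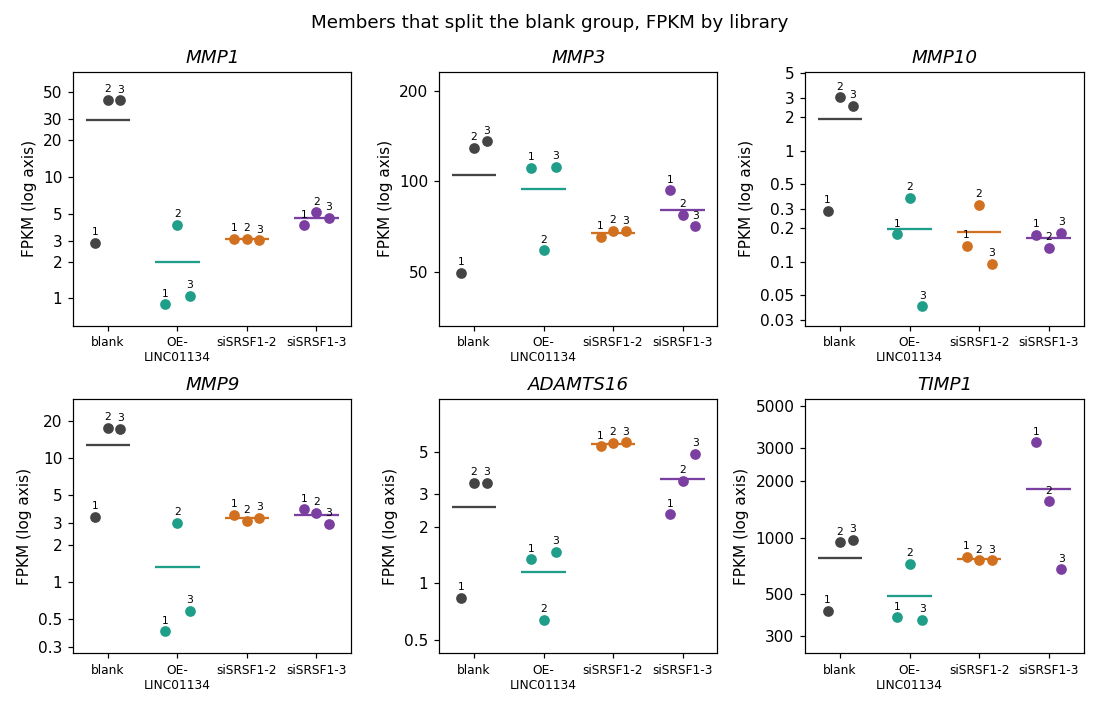
Each point is the FPKM of 1 library (log axis, replicate number beside it) and each bar the mean of its group of 3, for MMP1, MMP3, MMP10, MMP9, ADAMTS16 and TIMP1. Blank replicate 1 is the lowest blank library in all 6 panels, for MMP1 at 2.86 FPKM against 43.2 and 42.9, and TIMP1 runs from 677 to 3208 FPKM within the siSRSF1-3 group.

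Among the ADAMs that shed cell surface proteins, ADAM17 releases TNF and ligands of the EGF receptor, and ADAM10 releases Notch ectodomains and cadherins. ADAM10 was measured at 8.14, 6.65 and 6.91 FPKM in blank cells, 6.22, 6.85 and 6.54 with siSRSF1-2, and 3.74, 3.34 and 4.49 with siSRSF1-3. All siSRSF1-3 libraries were below all others, but ADAM10 missed both limits against blank (-0.90, SE 0.189, adjusted p = 0.0618) and against siSRSF1-2 (-0.76, SE 0.144, adjusted p = 0.0725). Without siSRSF1-3 replicate 3 it was called lower against blank (-1.01, adjusted p = 0.0131). ADAM17 was at 3.92, 5.82 and 5.56 FPKM in blank cells, at 7.07, 7.72 and 7.95 with siSRSF1-2, and at 0.977, 2.11 and 7.64 with siSRSF1-3. The siRNA groups thus overlapped, with siSRSF1-3 replicate 3 at the siSRSF1-2 level. With siSRSF1-2 all ADAM17 values were above blank, at an adjusted p of 0.0422 but a log2 fold change of 0.58, under the limit.

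ADAM9, a widely expressed membrane ADAM, was likewise highest in replicate 3 of the siSRSF1-3 group, with 9.85, 13.9 and 26.7 FPKM, against 37.7 to 39.9 with siSRSF1-2 and 26.0 to 43.2 in blank cells. TIMP1 was lowest in that replicate, with 3208, 1558 and 677 FPKM. Summed over the 20 ADAM genes, the level was 94.9 to 113 FPKM in blank cells, 80.2 to 83.7 with siSRSF1-2, 40.7 to 68.1 with siSRSF1-3 and 85 to 99.6 in OE-LINC01134 cells. With all libraries ADAM9, ADAM17 and TIMP1 did not pass the test against blank (-1.01, -0.96 and 1.05, adjusted p = 0.154, 0.349 and 0.31). Without siSRSF1-3 replicate 3, ADAM9 and ADAM17 were called lower (-1.40 and -1.73, adjusted p = 0.0194 and 0.0196), and TIMP1 was at 1.63 (adjusted p = 0.0608). The library size implied by the deposited FPKM was 0.712 times the library's own gene total in siSRSF1-3 replicate 1 and 0.888 times in replicate 2, against 0.99 to 1.09 in the other libraries. Across the 33 tested members, the log2 difference of siSRSF1-3 replicate 1 from replicate 3 had a Spearman correlation of -0.48 with gene length, and that of replicate 2 from replicate 3 of -0.59. Over all genes tested these were -0.18 and -0.21. Over the members, other pairs of replicates gave -0.32 for siSRSF1-2 replicate 1 from replicate 3 and 0.41 for blank replicate 1 from replicate 2. The genes share their libraries and are not independent replicates, and the part of gene length or scaling in these values was not tested.

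The direct comparison of siSRSF1-3 with siSRSF1-2 called 0 of 33 members by limma in either direction, against 0.0855% of all genes. At an unadjusted p under 0.05, 3 members were higher with siSRSF1-3 and 9 lower, a share no larger than the 42.1% of all genes with such a p, and voom called 0 members, against 0.308% of all genes lower and 0.319% higher. MMP2 had the smallest adjusted p of the members, with 39.4, 35.6 and 33.7 FPKM with siSRSF1-3 and 18.5, 20 and 19.1 with siSRSF1-2 (0.91, SE 0.113, adjusted p = 0.0517). It missed both limits. Without siSRSF1-3 replicate 3, TIMP1 was called higher (1.54, adjusted p = 0.0162) and 7 members lower, among them ADAM17 (-2.31, adjusted p = 0.0037) and ADAM9 (-1.72, adjusted p = 0.00172), in a fit that called 16% of all genes higher and 14.5% lower.

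**Figure D5:**
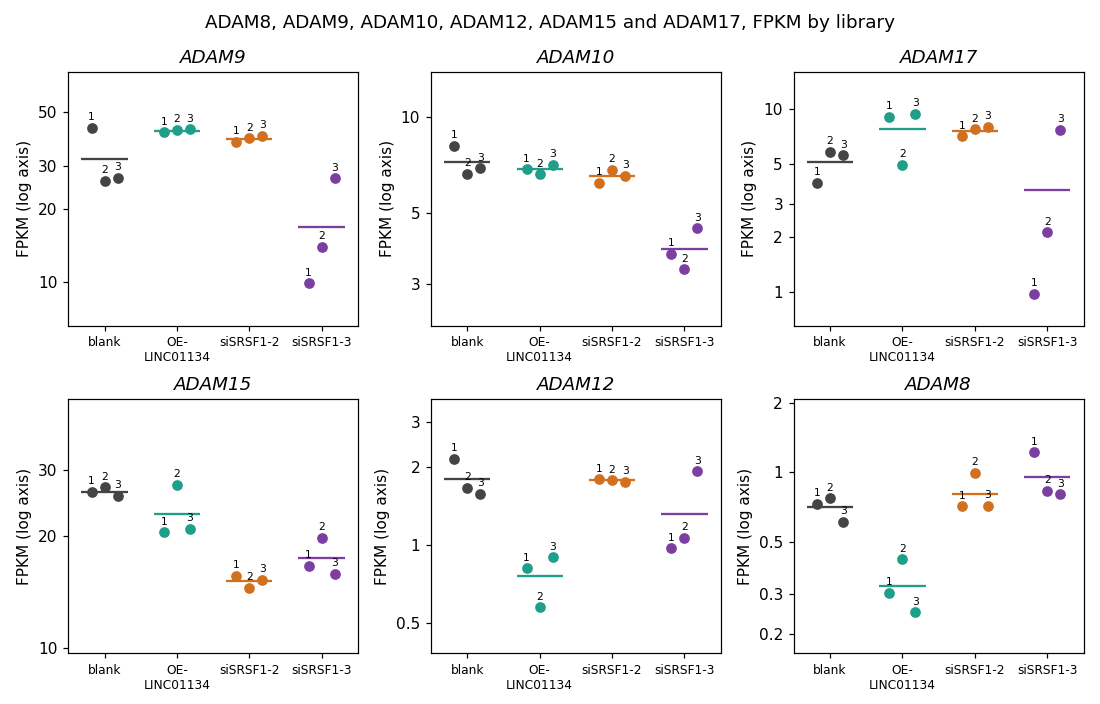
Each point is the FPKM of 1 library (log axis, replicate number beside it) and each bar the mean of its group of 3, for ADAM9, ADAM10, ADAM17, ADAM15, ADAM12 and ADAM8. ADAM9 and ADAM17 are spread widely over the siSRSF1-3 libraries (0.977 to 7.64 FPKM for ADAM17), and the OE-LINC01134 points of ADAM8 and ADAM12 lie below all blank points.

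The comparison of OE-LINC01134 with blank cells called 0 of 33 members by limma, against 0.85% of all genes called in either direction. At an unadjusted p under 0.05, 14 members were lower and 1 higher, where 26.3% of all genes had such a p in either direction. Voom called 3 members lower (MMP2, ADAM12 and ADAM23) and 0 higher, against 1.41% and 0.576% of all genes. The median log2 fold change was -0.64 for the members and 0.05 for all genes, and 29 of 33 members had a value below 0. In 12 members all OE-LINC01134 libraries lay below all blank libraries and in 1, ADAM32, above, against 13.8% and 16.8% of all genes. MMP2 was measured at 14.6, 25.5 and 14.5 FPKM in OE-LINC01134 cells, below 39.8 in the lowest blank library (-1.48, SE 0.253, adjusted p = 0.0502). ADAM12, an ADAM known from muscle and bone precursor cells, held 0.815, 0.575 and 0.898 FPKM against 2.16, 1.67 and 1.58 in blank cells (-1.15, SE 0.238, adjusted p = 0.0679).

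The OE-LINC01134 values of many members were split by replicate 2. ADAM19 was at 2.95, 11.6 and 3.16 FPKM, TIMP2 at 9.56, 25 and 9.66, MMP14 at 19.0, 33.9 and 18.5, and MMP9 at 0.399, 2.98 and 0.584. Without OE-LINC01134 replicate 2, 11 members were called lower, against 5.87% of all genes, among them ADAM19 (-2.77, adjusted p = 0.00183), MMP14 (-1.16, adjusted p = 0.00756), TIMP2 (-1.34, adjusted p = 0.00736) and TIMP3 (-1.22, adjusted p = 0.00736). Without that library and blank replicate 1 together, 16 members were called lower and ADAM32 higher, against 8.84% and 5.1% of all genes. Which libraries show the state of these cells cannot be told apart from their labels.

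The siRNA groups were also set against OE-LINC01134 cells, a comparison that does not use the blank libraries. With siSRSF1-2, 3 members were higher than in OE-LINC01134 cells and 0 lower by limma, against 4.33% of all genes higher and 2.35% lower. Before adjustment 9 members were higher and 2 lower at p under 0.05, a share no larger than the 40.5% of all genes with such a p, and voom called 6 higher and 0 lower, against 4.87% and 2.58% of all genes. ADAMTS16, a secreted ADAMTS enzyme, held 5.38, 5.59 and 5.64 FPKM with siSRSF1-2 and 1.34, 0.637 and 1.47 in OE-LINC01134 cells (2.25, SE 0.291, adjusted p = 0.00351). Its blank libraries held 0.838, 3.43 and 3.42 FPKM. ADAM12 held 1.80, 1.78 and 1.76 FPKM with siSRSF1-2, close to its blank mean of 1.81 ± 0.314 (SD, n = 3), and was higher than in OE-LINC01134 cells (1.14, SE 0.184, adjusted p = 0.0072). ADAM8, an ADAM best known from leukocytes, was low throughout, with 0.714, 0.999 and 0.720 FPKM with siSRSF1-2 and 0.303, 0.421 and 0.249 in OE-LINC01134 cells (1.11, SE 0.258, adjusted p = 0.0246). ADAM8 stayed called under 4 of 13 alternatives. Without OE-LINC01134 replicate 2 the count was 7 higher, against 6.33% of all genes, with MMP1, MMP9, TIMP1, ADAM23 and ADAMTS2 added, while ADAM12 fell just short of the fold limit (0.98, adjusted p = 0.000787).

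With siSRSF1-3, 0 members differed from OE-LINC01134 cells by limma, against 3.44% of all genes called in either direction. At an unadjusted p under 0.05, 7 members were higher and 6 lower, where 33.1% of all genes had such a p in either direction. Voom called ADAM8 and ADAMTS16 higher and ADAM32 lower, against 3.08% and 2.33% of all genes. ADAMTS16 held 2.33, 3.51 and 4.90 FPKM with siSRSF1-3, above all OE-LINC01134 libraries (1.57, SE 0.398, adjusted p = 0.0719). Without siSRSF1-3 replicate 3, 4 members were called higher and 6 lower, against 14.5% and 13.3% of all genes, and without OE-LINC01134 replicate 2, 3 were called higher (MMP1, MMP2 and MMP9), against 0.861% of all genes.

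Genes that act around these enzymes were taken from 4 lists. Of the regulators of metallopeptidases (inhibitors outside the TIMP family, proprotein convertases, ADAM partners and ADAMTS-like proteins), 21 of 29 were tested. ADAMTSL1, a relative of the ADAMTS enzymes without a protease domain, was lower with siSRSF1-2 than in blank cells (-1.01, adjusted p = 0.0142). With siSRSF1-3, 0 of the 21 were called, against 0.929% of all genes lower and 0.331% higher. The broad protease inhibitor A2M was lower in OE-LINC01134 cells, at 1.68, 3.02 and 1.95 FPKM against 6.66, 11 and 11.2 in blank cells (-2.07, SE 0.286, adjusted p = 0.0402), and was higher with siSRSF1-2 than in OE-LINC01134 cells (2.34, adjusted p = 0.00107). Without blank replicate 2, the fit of OE-LINC01134 against blank called 0 of all 17538 genes lower, so A2M was not called there. Furin, the convertase that activates MMP14 and several ADAMs, was at 53.3 to 68.7 FPKM in blank cells, 37.7 to 39.6 with siSRSF1-2 and 34.3 to 35.6 with siSRSF1-3, and was not called.

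Of the cell surface proteins that ADAMs shed, 23 of 30 were tested. SDC1, a heparan sulfate proteoglycan, held 32.2, 20.5 and 21.3 FPKM in blank cells and was lower with both siRNAs, at 7.15, 6.51 and 5.91 with siSRSF1-2 (-1.87, SE 0.187, adjusted p = 0.00242) and 9.72, 9.53 and 6.73 with siSRSF1-3 (-1.49, SE 0.252, adjusted p = 0.0498). Over the alternatives run, the second of these adjusted p ranged from 0.00633 to 0.219. The EGF receptor ligand EREG was higher with siSRSF1-2, at 6.01, 6.30 and 6.30 FPKM against 1.66, 3.48 and 3.83 (1.11, adjusted p = 0.0419). The low value of 1.66 FPKM is that of blank replicate 1, which stood apart. Whether EREG would be called without that library is not given here. Against OE-LINC01134 cells, the chemokine CXCL16 was higher with both siRNAs (1.18 and 1.16, adjusted p = 0.00165 and 0.0475), the EGF receptor ligand HBEGF was higher with siSRSF1-3 (1.07, adjusted p = 0.0406), CDH2, the N-cadherin gene, was lower with siSRSF1-3 (-1.05, adjusted p = 0.0322), and SDC1 was lower with siSRSF1-2 (-1.63, adjusted p = 0.00591). Without siSRSF1-3 replicate 2, the fit of siSRSF1-3 against OE-LINC01134 called 0 of all 17538 genes higher and 1 lower. CXCL16 and HBEGF were thus not called in it. The medians of this list against blank were -0.05 with siSRSF1-2, -0.15 with siSRSF1-3 and 0.06 in OE-LINC01134 cells.

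Of the other secreted or membrane metallopeptidases, 8 of 20 were tested and 0 were called against blank in any of the 3 comparisons. At most 2.22% of all genes were called higher and 2.73% lower in these, so 8 genes are too few for a count of 0 to set them apart. Against OE-LINC01134 cells, the pappalysin PAPPA, which cuts binding proteins of insulin-like growth factors, was lower with both siRNAs (-1.13 and -1.87, adjusted p = 0.0157 and 0.0456), and the carboxypeptidase relative CPXM2 was higher with siSRSF1-2 (2.04, adjusted p = 0.0129). The siSRSF1-3 fit without siSRSF1-3 replicate 2 called 1 of all 17538 genes lower, so PAPPA and CDH2 were not both called in it. Of the matrix proteins that MMPs and ADAMTS enzymes cleave, 11 of 20 were tested and 0 were called by limma in any of the 6 comparisons. The shares of all genes were at most 4.33% higher and 2.73% lower, so 11 genes are also too few for a count of 0 to set them apart. The medians of these matrix genes against blank were -0.44 with siSRSF1-2, -0.80 with siSRSF1-3 and -0.62 in OE-LINC01134 cells. Within this list, fibronectin (FN1) was at 61.3, 80.9 and 79.4 FPKM in blank cells and at 12, 16.4 and 30.2 with siSRSF1-3. FN1 was not called and was picked after its values were seen. Its siSRSF1-2 and OE-LINC01134 values are not given here.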

How the data were processed

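The authors deposited FPKM per gene for 12 libraries, with gene lengths, coordinates and full names; the aligner, the counting program and a human genome build are not given in the sources used here. The labels name mouse and its build, while the genes carry human Ensembl identifiers, so the samples were treated as human. FPKM times length gave whole reads for 100% of values (tolerance 0.01 of a read). A pseudocount of 0.1 was added to FPKM before log2, and limma 3.58.1 (R 4.3.3, eBayes with a trend) was run on the 3 + 3 libraries of each of 6 comparisons, over the 17538 genes with a mean of at least 0.5 FPKM, with Benjamini-Hochberg adjustment over all of them. A gene was called where its adjusted p was under 0.05 and its log2 fold change beyond 1 in size, and fold changes of low genes are understated on this scale. The labels do not say that replicates came from separate cultures, so p-values measure the spread between these samples, which may be technical. The supplementary methods speak of 2 biological replicates per condition, where 3 libraries per group were analysed here. The labels and the supplementary methods name different library kits, and HOS is the line given for transient transfection in the methods, where the labels have U2OS. The statistics were tested on simulated data before use.

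The members, the lists and the genes named were chosen with earlier results of these data known. Named were SRSF1, LINC01134, every called member, a set of well-known members whatever their values, the members at the limit of 0.5 FPKM, the 10 highest, and called genes of the lists. ADAM23, ADAMTS2, ADAMTS9, ADAMTS15, MMP7, MMP8, MMP12, MMP20, FURIN, FN1, NIPAL4 and SYN3 were added after their values were seen. Alternatives were a pseudocount of 1, a limit of 1 FPKM or none, each library's own read total, one fit over all groups, voom on recovered reads, no fold limit, a replicate block and leaving out each library. Averaging like libraries, and leaving out blank replicate 1 with OE-LINC01134 replicate 2, were chosen after seeing the data. No sequences are shown, since no human reference was used here.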

Additional observations from a re-analysis of the deposited data

Results flagged for a closer look

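ADAM8 moved in opposite directions against the same blank libraries in 2 groups: all siSRSF1-3 libraries (1.22, 0.831 and 0.805 FPKM) lay above all blank libraries (0.733, 0.773 and 0.614) and all OE-LINC01134 libraries (0.303, 0.421 and 0.249) below them. The log2 difference between siSRSF1-3 and OE-LINC01134 was 1.31 (SE 0.355) and did not pass limma's adjustment over all genes (adjusted p = 0.0806). Neither difference from blank was called (0.37, adjusted p = 0.43, and -0.94, adjusted p = 0.127).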

How the results depend on the processing

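Counts of called members depended on the libraries used. With like libraries averaged, 0 members were called in any comparison (0 against 6 and 3 lower for siSRSF1-2 and siSRSF1-3, and 0 against 3 higher for siSRSF1-2 over OE-LINC01134). That fit has fewer samples and called at most 6 genes higher and 2 lower of all 17538 in any comparison. A count of 0 members was therefore all but fixed in it. Leaving out 1 library gave 5 to 10 lower for siSRSF1-2 against blank, 0 to 13 lower for siSRSF1-3, 0 to 11 lower and 0 to 1 higher for OE-LINC01134, 0 to 7 lower and 0 to 1 higher for siSRSF1-3 against siSRSF1-2, 2 to 7 higher for siSRSF1-2 against OE-LINC01134, and 0 to 4 higher and 0 to 6 lower for siSRSF1-3 against OE-LINC01134. The counts over all 17538 genes moved as well. In the same order they were 331 to 656 lower, 0 to 1992 lower, 0 to 1029 lower and 1 to 511 higher, 0 to 2551 lower and 0 to 2807 higher, 484 to 1111 higher, and 0 to 2543 higher and 1 to 2335 lower. Without both lone libraries, OE-LINC01134 gave 16 lower and 1 higher. One fit over all groups gave 4 lower for siSRSF1-2 (MMP15 and ADAMTS12 lost), 11 lower for siSRSF1-3, 9 lower for OE-LINC01134, 2 lower for siSRSF1-3 against siSRSF1-2, and 4 higher and 2 lower for siSRSF1-3 against OE-LINC01134. In the same order, that fit called 180, 1177, 515 and 1259 of all 17538 genes lower, and 1624 higher and 1459 lower in the last comparison. Voom gave 5, 3, 6 higher, 2 higher and 1 lower for siSRSF1-3, OE-LINC01134, siSRSF1-2 over OE-LINC01134 and siSRSF1-3 against OE-LINC01134 (the last 2). A pseudocount of 1 gave 3 lower for siSRSF1-2, 1 lower for OE-LINC01134 and 1 higher for siSRSF1-2 over OE-LINC01134, against 202, 88 and 361 of all 17538 genes. A limit of 1 FPKM gave 1 lower for OE-LINC01134, against 93 of 14491 genes. No filter gave 1 lower for siSRSF1-3, against 92 of 42596 genes. For siSRSF1-2 no filter gave 7 lower, against 481 of 42596, with MMP13 and ADAMTS15 added and ADAMTS12 lost. Both added genes have a mean under 0.5 FPKM. Without a fold limit, siSRSF1-2 gave 1 higher and 9 lower against blank and 2 lower against OE-LINC01134. Counts over all genes without a fold limit are not given here, so these member counts cannot be set against them. The cause of these changes in count was not tested. Replicate numbers did not pair the samples (2 of 18 same-number correlations over 0.1, range -0.0815 to 0.212). A replicate block gave 5 lower for siSRSF1-2 (381 of all 17538 genes), 0 for siSRSF1-3 (0 of all genes) and 2 higher for siSRSF1-2 over OE-LINC01134 (628 of all genes). Scaling to each library's own read total shifted the median of all genes for siSRSF1-3 against blank from -0.01 to -0.26. That setting called 3 members lower (ADAM19, TIMP2 and TIMP3), against 58 of all 17538 genes. TIMP2 was added and MMP14 was lost. No fold change of a called member changed sign under any alternative run. MMP2, MMP14 and ADAM19 (siSRSF1-2 against blank) and ADAMTS16 (siSRSF1-2 against OE-LINC01134) stayed called under 13 of 14 alternatives, ADAMTS12 under 5 of 14, ADAM8 (siSRSF1-2 against OE-LINC01134) under 4 of 13, and TIMP3, ADAM19 and MMP14 with siSRSF1-3 under 7, 6 and 5 of 14.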
